A study of Mus musculus with 16 samples.

Results

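The 5 genes described here are Gas1, Cdon and Boc, which encode surface co-receptors for Hedgehog ligands, and Gli2 and Gli3, which encode the transcription factors that carry most of the Hedgehog response. They were matched by Ensembl identifier and are 5 of the 54838 identifiers counted in each library. They were selected on measured values, namely lower RNA where Hedgehog output was high, that is in Gpr161 knockout (KO) embryos, so every difference that involves a Gpr161 KO library is given below as a description without a test.

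Hedgehog ligands bind Patched receptors, which releases Smoothened and lets Gli proteins activate target genes. Gas1, Cdon and Boc bind the ligand at the cell surface together with Patched and raise the sensitivity of the cell to it. Without ligand, protein kinase A marks Gli3, and less of Gli2, for processing into repressor forms at the primary cilium, a step that the ciliary receptor Gpr161 promotes and that needs an intact cilium.

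RNA was sequenced from mouse embryos at day E10.5, divided into a Head part (the body anterior to the third branchial arches) and a Tail part (the body posterior to the forelimbs). The 4 genotypes were wild type (WT), knockouts of Fuz and of Gpr161, and the combined knockout of both genes (DKO). Fuz encodes a planar cell polarity effector that is needed to build cilia. There were 2 libraries in each of the 8 groups, 16 in all, with no treatment in any group. The labels give no strain, no allele, no embryo number and no pooling, so the p-values below measure only the spread between these libraries. In WT, Fuz KO and DKO that spread may be technical. The 2 Gpr161 KO libraries of a region differed in sex by their RNA, as given below, and so were not from 1 embryo. In a whole embryo part, fewer cells of a type and less RNA per cell cannot be told apart.

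Total counts were 39062489 to 53680317 per library, and the lowest count of any of the 5 genes in any library was 565. All 5 genes passed the filter on low counts. Fuz was at 0.808 to 1.89 CPM (counts scaled to each library's TMM-adjusted total) in the 8 libraries labelled as lacking it and at 4.95 to 9.22 CPM in the other 8. Gpr161 was at 2.12 to 5.44 CPM in the 8 libraries labelled as lacking it and at 24.3 to 54.95 CPM elsewhere. Summed over 8 markers, genes of the posterior body reached at most 1.502 CPM in Head libraries and at least 234 CPM in Tail libraries. Summed markers of forebrain and midbrain were at 105 to 218 CPM in Head and at 8.48 to 77.8 CPM in Tail. A list of 14 hypoxia and glycolysis genes summed to 21185 CPM in Head Fuz KO 1 against 6176 CPM in Head Fuz KO 2, and to 18656.5 against 6747 CPM in the Tail libraries. By Xist and Y-linked RNA, the 4 WT libraries were female, the 8 Fuz KO and DKO libraries male, and Gpr161 KO held 1 male and 1 female library per region. The summed RNA of 10 cardiomyocyte genes was 1623 and 323 CPM in Head Gpr161 KO and at most 17.9 CPM in the other Head groups.

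Gli1 and Ptch1, the standard target genes of the pathway, show where Hedgehog output was high. Gli1, itself an activator, measured 36.4 and 43.7 CPM in Head WT, 14.6 and 11.9 CPM in Head Fuz KO, 80.3 and 88.9 CPM in Head Gpr161 KO and 24.9 and 20.3 CPM in Head DKO. In Tail the Gli1 values were 38.2 and 45.9 CPM in WT, 28.3 and 20.0 CPM in Fuz KO, 114 and 130 CPM in Gpr161 KO and 40.0 and 35.4 CPM in DKO. Ptch1, the receptor gene, measured 484 and 479 CPM in Head Gpr161 KO and 545 and 532 CPM in Tail Gpr161 KO. Its values lay between 97.6 and 199 CPM in the other 6 groups, so the Gpr161 KO libraries were the highest for both targets.

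**Figure D1:**
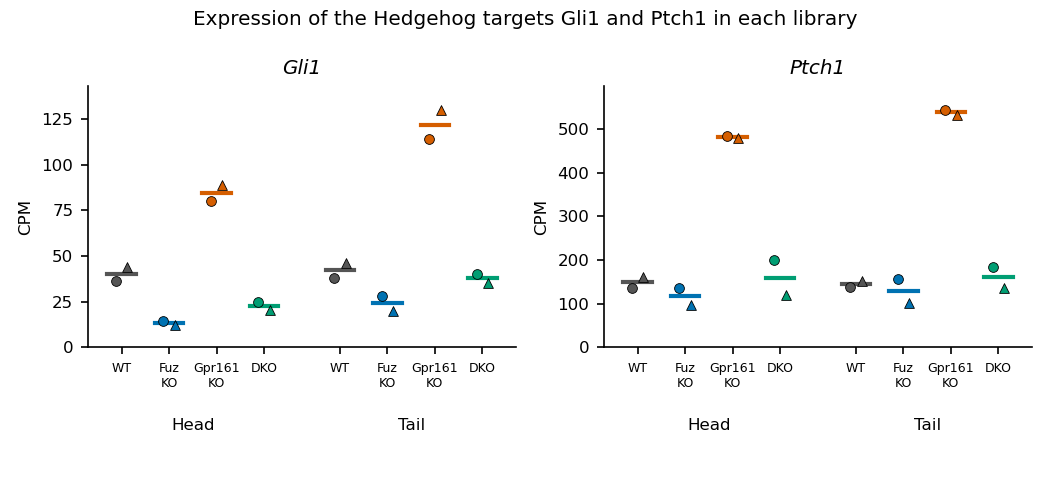
Expression of Gli1 and Ptch1 in CPM (vertical axes) in each of the 16 libraries, by genotype within Head and Tail. Circles are replicate 1, triangles replicate 2 and bars the mean of the 2 libraries. The Gpr161 KO libraries sit at 80.3 to 130 CPM for Gli1 and at 479 to 545 CPM for Ptch1, above every other group.

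Gas1, a protein held on the membrane by a lipid anchor, had the widest range of the 5 genes. In Head it measured 195 and 175 CPM in WT, 118 and 157 CPM in Fuz KO, 52.5 and 45.5 CPM in Gpr161 KO and 121 and 122 CPM in DKO. In Tail it measured 304 and 238 CPM in WT, 206 and 266 CPM in Fuz KO, 120 and 112 CPM in Gpr161 KO and 219 and 224 CPM in DKO. Within each region both Gpr161 KO libraries were the lowest of the 8, and every Tail library exceeded the Head libraries of its own genotype. The highest Gas1 value over all libraries was 6.68 times the lowest. In the order of the 8 group means (from Tail WT, Tail Fuz KO, Tail DKO, Head WT, Head Fuz KO, Head DKO and Tail Gpr161 KO down to Head Gpr161 KO), the libraries overlapped between Tail WT and Tail Fuz KO, between Tail Fuz KO and Tail DKO, and between Head Fuz KO and Head DKO.

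Cdon, a transmembrane protein with immunoglobulin and fibronectin repeats, was highest in Head WT. Its Head values were 134 and 110 CPM in WT, 102 and 98.5 CPM in Fuz KO, 68.4 and 56.9 CPM in Gpr161 KO and 105 and 87.3 CPM in DKO. Its Tail values were 106 and 86.5 CPM in WT, 83.8 and 88.9 CPM in Fuz KO, 44.7 and 31.5 CPM in Gpr161 KO and 71.6 and 64.9 CPM in DKO. Tail Gpr161 KO was the lowest of the 8 groups and did not overlap any other, while Tail DKO and Head Gpr161 KO overlapped. The groups Head Fuz KO, Tail WT, Head DKO and Tail Fuz KO, at means of 100.1, 96.5, 96.4 and 86.3 CPM, each overlapped the next in order.

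Boc, a close relative of Cdon, was lowest in Head Gpr161 KO. In Head it measured 45.1 and 49.2 CPM in WT, 59.4 and 58.3 CPM in Fuz KO, 13.9 and 16.5 CPM in Gpr161 KO and 71.4 and 51.4 CPM in DKO. In Tail it measured 39.5 and 50.2 CPM in WT, 39.5 and 42.6 CPM in Fuz KO, 23.7 and 18.6 CPM in Gpr161 KO and 40.3 and 24.6 CPM in DKO. The 4 Gpr161 KO libraries were the lowest of the 16, and the highest value was 5.13 times the lowest. DKO library 1 exceeded DKO library 2 in both regions, and the order began with Head DKO and Head Fuz KO, which overlapped. Neighbouring groups from Head WT through Tail WT and Tail Fuz KO to Tail DKO overlapped.

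Gli2, the main activator among the Gli proteins, varied least. Its Head values were 59.8 and 55.3 CPM in WT, 63.3 and 60.9 CPM in Fuz KO, 43.0 and 49.0 CPM in Gpr161 KO and 73.5 and 58.9 CPM in DKO. Its Tail values were 66.0 and 53.0 CPM in WT, 56.6 and 59.8 CPM in Fuz KO, 53.3 and 56.7 CPM in Gpr161 KO and 54.8 and 47.2 CPM in DKO. The highest library was 1.71 times the lowest, and each of the 8 groups overlapped the next in order. In Tail the Gpr161 KO libraries lay inside the WT range, so the description of these genes as low where output is high does not hold for Gli2 there.

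Gli3, the main source of Gli repressor, was lowest in Head Gpr161 KO, as Boc was. In Head it measured 143 and 127 CPM in WT, 135 and 155 CPM in Fuz KO, 83.2 and 65.1 CPM in Gpr161 KO and 177 and 143 CPM in DKO. In Tail it measured 157 and 133 CPM in WT, 119 and 139 CPM in Fuz KO, 88.4 and 96.2 CPM in Gpr161 KO and 109 and 115 CPM in DKO. Both Gpr161 KO groups were below every other group without overlap, and Tail DKO was next. The top 5 groups (Head DKO, Tail WT, Head Fuz KO, Head WT and Tail Fuz KO) each overlapped the next.

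**Figure D2:**
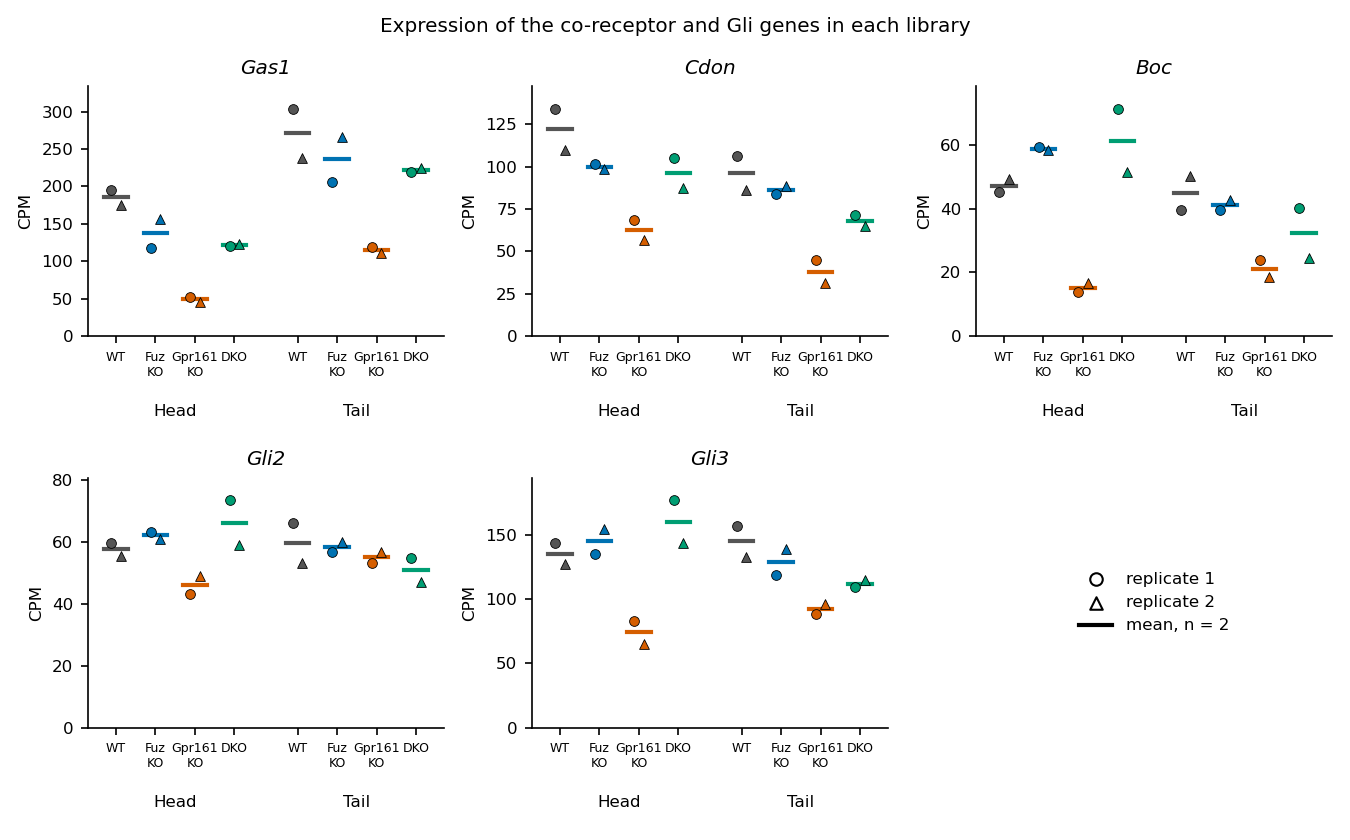
Expression of Gas1, Cdon, Boc, Gli2 and Gli3 in CPM (vertical axes, each starting at 0) in the 16 libraries, by genotype within Head and Tail. Circles are replicate 1, triangles replicate 2 and bars the mean of the 2 libraries. Gpr161 KO is the lowest genotype in both regions for Gas1, Cdon, Boc and Gli3, whereas Gli2 runs only from 43.0 to 73.5 CPM.

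Levels were compared between genes per kilobase of exon, since the gene models span 2961 bases for Gas1, 7715 for Cdon, 4451 for Boc, 6869 for Gli2 and 9589 for Gli3. In Head WT the mean level was 62.6 CPM per kilobase for Gas1, 15.8 for Cdon, 14.1 for Gli3, 10.6 for Boc and 8.38 for Gli2. In Tail WT it was 91.5 CPM per kilobase for Gas1, 15.1 for Gli3, 12.5 for Cdon, 10.1 for Boc and 8.66 for Gli2. Gas1 was the most abundant of the 5 on this scale in all 8 groups, at 16.5 CPM per kilobase in Head Gpr161 KO, where Boc was at 3.42.

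The DNA just upstream is shown for Gas1, which had the widest range, Gli2, which had the narrowest, and Gli3, the other Gli gene. The sequences are the 250 bases before the annotated start, 5′ to 3′ on the gene's strand, from RefSeq on the build GRCm38.p6, where 4 of the 5 genes had an entry (not Boc). Capitals mark the words within 2 mismatches of GACCACCCA, the consensus bound by Gli proteins, or of its reverse complement TGGGTGGTC.
Gas1, chr13:60177536-60177785, minus strand: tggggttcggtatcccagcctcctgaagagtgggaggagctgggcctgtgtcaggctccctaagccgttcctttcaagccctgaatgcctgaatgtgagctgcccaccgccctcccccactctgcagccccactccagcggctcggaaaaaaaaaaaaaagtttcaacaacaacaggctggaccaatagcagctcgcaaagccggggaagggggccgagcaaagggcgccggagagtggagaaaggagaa
Gli2, chr1:119053620-119053869, minus strand: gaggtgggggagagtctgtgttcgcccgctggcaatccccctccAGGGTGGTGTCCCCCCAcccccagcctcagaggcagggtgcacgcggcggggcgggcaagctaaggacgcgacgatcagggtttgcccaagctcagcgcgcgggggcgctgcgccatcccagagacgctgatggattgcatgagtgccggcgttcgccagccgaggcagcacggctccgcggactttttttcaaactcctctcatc
Gli3, chr13:15463473-15463722, plus strand: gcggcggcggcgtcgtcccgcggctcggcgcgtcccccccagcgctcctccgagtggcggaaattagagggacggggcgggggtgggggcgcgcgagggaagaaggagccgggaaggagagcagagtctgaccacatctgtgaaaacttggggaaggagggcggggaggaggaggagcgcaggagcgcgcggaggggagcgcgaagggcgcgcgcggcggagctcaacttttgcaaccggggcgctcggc
The exact word was in 0.225% of 32851 promoters of this length, a word with at most 1 mismatch in 5.79% and with at most 2 in 51.8%. None of the 4 promoters held a word with at most 1 mismatch. The promoter of Gli2 held 2 words at 2 mismatches, AGGGTGGTG starting 206 bases and GTCCCCCCA starting 198 bases before the start, which overlap by their shared base. The entry of Cdon starts inside the span of the gene and is not printed. The GC content was 58.8% for Gas1, 67.2% for Gli2, 72.8% for Gli3 and 42.8% for Cdon, against a median of 52.4% over all promoters.

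Gpr161 KO against WT is the contrast by which the genes were chosen, and its values are given without a test. In Head the log2 differences (± SE) were -1.92 ± 0.17 for Gas1, -0.96 ± 0.17 for Cdon, -1.63 ± 0.23 for Boc, -0.32 ± 0.14 for Gli2 and -0.87 ± 0.15 for Gli3. The mean level of Gas1 was thus 0.264 times that of WT, and that of Gli2 0.800 times. In Tail the differences were -1.23 ± 0.16 for Gas1, -1.34 ± 0.18 for Cdon, -1.08 ± 0.23 for Boc, -0.11 ± 0.14 for Gli2 and -0.65 ± 0.15 for Gli3. Both Gpr161 KO libraries lay below both WT libraries for 5 of 5 genes in Head and for 4 of 5 in Tail (all but Gli2), where 25.1% and 22% of all genes tested did so. Gas1 and Boc had the larger differences in Head, and Cdon in Tail. The summed RNA of 5 neural crest markers was 35.8 and 38.1 CPM in Tail Gpr161 KO against 99.3 and 106 CPM in Tail WT, and 99.9 and 100.4 CPM in Head Gpr161 KO against 119 and 144 CPM in Head WT. One of those markers, Tfap2b, is among the genes most like Gas1 below. The 5 endothelial markers summed to 349 and 423 CPM in Head Gpr161 KO against 221 and 241 CPM in Head WT, and to 381 and 406 CPM in Tail Gpr161 KO against 321 and 311 CPM in Tail WT. The hypoxia and glycolysis genes summed to 11689 and 8275 CPM in Head Gpr161 KO against 5388 and 5625 CPM in Head WT, and to 12005 and 8275 CPM against 6209 and 6895 CPM in Tail. The part of these genes, and of the cardiomyocyte genes, in the differences was not tested.

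In embryos lacking Fuz as well as Gpr161, the co-receptor genes and Gli3 were above their Gpr161 KO levels in both regions. Relative to Gpr161 KO, Head DKO differed by log2 1.31 ± 0.17 for Gas1, 0.62 ± 0.17 for Cdon, 2.01 ± 0.23 for Boc, 0.52 ± 0.14 for Gli2 and 1.11 ± 0.15 for Gli3. Both DKO libraries lay above both Gpr161 KO libraries for all 5 genes in Head, which was so for 25.1% of all genes. In Tail the differences were 0.94 ± 0.16 for Gas1, 0.84 ± 0.18 for Cdon, 0.61 ± 0.23 for Boc, -0.11 ± 0.14 for Gli2 and 0.28 ± 0.15 for Gli3, and 4 of 5 genes were higher without overlap (24.5% of all genes). If the log2 effects of Fuz KO and Gpr161 KO are added, all 5 genes in Head DKO lay above that sum, by 1.74 ± 0.23 for Gas1, 0.91 ± 0.25 for Cdon, 1.69 ± 0.32 for Boc, 0.41 ± 0.20 for Gli2 and 1.01 ± 0.21 for Gli3. In Tail the excess was 1.14 ± 0.23 for Gas1, 1.00 ± 0.25 for Cdon, 0.74 ± 0.32 for Boc and 0.45 ± 0.21 for Gli3, while Gli2 was at -0.08 ± 0.20. These contrasts include the Gpr161 KO libraries and carry no test.

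**Figure D3:**
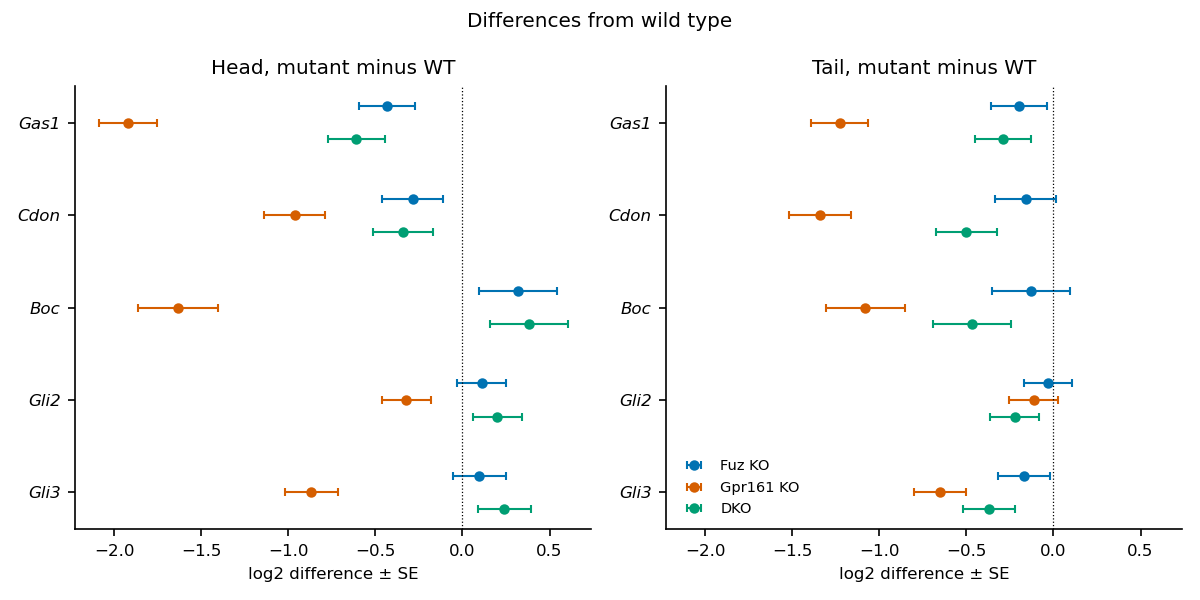
Log2 difference from WT ± SE (horizontal axes) of the 5 genes in Fuz KO, Gpr161 KO and DKO, in Head (left) and Tail (right), each from 2 libraries against 2. Gpr161 KO lies farthest left except for Gli2 in Tail. Boc, Gli2 and Gli3 in DKO lie right of 0 in Head (0.38, 0.20 and 0.24) and left of it in Tail (-0.47, -0.22 and -0.37).

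Fuz KO was compared with WT to see whether losing Fuz alone changed these genes. In Head, 0 of the 5 genes passed edgeR's quasi-likelihood test with Benjamini-Hochberg adjustment over 21284 genes (0.047% of all genes passed), 1 had an unadjusted p under 0.05 (8.17% of all genes did), and DESeq2 called 0. Gas1 was at log2 -0.43 ± 0.16 (95% interval -0.78 to -0.08, edgeR adjusted p = 0.600) and lower in 2 of 2 libraries. Cdon was at -0.29 (interval -0.66 to 0.09), Boc at 0.32 (-0.16 to 0.80), Gli2 at 0.11 (-0.19 to 0.41) and Gli3 at 0.10 (-0.23 to 0.42). The Fuz KO and WT libraries did not overlap for Gas1 and Cdon (lower) and for Boc and Gli2 (higher), and 36.5% of all genes did not overlap in either direction. Fuz KO library 1, with the high hypoxia genes, had less Gas1 than library 2 in both regions. DKO library 1 also had higher hypoxia sums than library 2 (15072 and 8849 CPM in Head, 15072 and 9323 CPM in Tail). Gas1 in these DKO libraries was at 121 and 122 CPM in Head and at 219 and 224 CPM in Tail. A link between the hypoxia genes and Gas1 was not tested. The Gas1 difference of Fuz KO from WT in Head moved with the library kept. Without Head Fuz KO 1 it was -0.24. Without Head Fuz KO 2 it was -0.69 (edgeR adjusted p = 0.0260), in a fit that called 2256 genes and took the spread of the lone Fuz KO library from the other groups. The Cdon difference ran from -0.44 without Head WT 2 to -0.16 without Head WT 1. In Tail, 0 of the 5 genes passed (0.0094% of all genes did), none had an unadjusted p under 0.05 (5.21% of all genes did), and DESeq2 called 0. The Tail differences ran from -0.20 (Gas1, interval -0.55 to 0.15) to -0.03 (Gli2, interval -0.33 to 0.27), and for all 5 genes the libraries overlapped (34.6% of all genes did not). Since the Fuz KO and DKO libraries were male and the WT libraries female, genotype and sex cannot be told apart in these comparisons. The WT libraries also entered the contrast by which the genes were chosen.

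DKO against WT shows the genes when Gpr161 and Fuz are both lost. In Head, 0 of 5 genes passed (0.0329% of all genes did), 1 had an unadjusted p under 0.05 (4.33% of all genes did) and DESeq2 called 0. Gas1 was at log2 -0.61 ± 0.16 (95% interval -0.96 to -0.26, edgeR adjusted p = 0.800), with both DKO libraries below both WT libraries. The libraries of 3 of the 5 genes did not overlap (Gas1 and Cdon lower, Boc higher), as for 40.4% of all genes. Cdon was at -0.34 (interval -0.72 to 0.03), whereas Boc was at 0.38 (-0.10 to 0.86), Gli2 at 0.20 (-0.10 to 0.50) and Gli3 at 0.24 (-0.08 to 0.57). Without Head DKO 1 and without Head DKO 2, Boc was at 0.10 and 0.59, Gli2 at 0.011 and 0.34, and Gli3 at 0.060 and 0.38. Cdon ran from -0.51 without Head DKO 1 to -0.21 without Head WT 1. Without a filter on low counts Gas1 passed in Head DKO (edgeR adjusted p = 0.00493), in a fit that called 432 genes against 7 with the filter. In Tail, 0 of 5 passed (0.0423% of all genes did), 2 had an unadjusted p under 0.05 (7.19% of all genes did), and DESeq2 called 0. These were Cdon at -0.50 ± 0.17 (interval -0.88 to -0.12, edgeR adjusted p = 0.546) and Gli3 at -0.37 ± 0.15 (-0.70 to -0.05, adjusted p = 0.633). Gas1 was at -0.29 (interval -0.64 to 0.06), Boc at -0.47 (-0.95 to 0.02) and Gli2 at -0.22 (-0.53 to 0.08). On leaving out 1 library at a time, the Tail values ran from -0.45 to -0.088 for Gas1, -0.64 to -0.33 for Cdon, -0.37 to -0.041 for Gli2 and -0.48 to -0.23 for Gli3 (without Tail WT 2 and Tail WT 1), and from -0.87 to -0.15 for Boc (without Tail DKO 1 and Tail DKO 2). Both Tail DKO libraries lay below both WT libraries for Gas1, Cdon and Gli3, as they did for 20.8% of all genes. The hypoxia and glycolysis genes summed to 15072 and 8849 CPM in Head DKO against 5388 and 5625 CPM in Head WT, and to 15072 and 9323 CPM in Tail DKO against 6209 and 6895 CPM in Tail WT. In Tail DKO the neural progenitor markers summed to 311 and 254 CPM against 327 and 541 CPM in WT, and the neural crest markers to 90.9 and 78.8 CPM against 106 and 99.3 CPM. The mesenchyme markers summed to 1436 and 1215 CPM in Tail DKO against 1085 and 934 CPM in Tail WT, but they did not rise together. Col1a1 (679 and 497 against 234 and 209 CPM) and Pdgfra (263 and 249 against 245 and 204 CPM) were higher without overlap. Prrx1 (119 and 154 against 204 and 158 CPM) and Tcf15 (25.9 and 22.1 against 40.8 and 43.5 CPM) were lower. Prrx2, Twist1, Twist2 and Meox1 overlapped. The part of these genes in the differences was not tested.

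DKO against Fuz KO compares embryos without and with Gpr161 where Fuz is absent, and shares no library with the contrast that chose the genes. In Head, 0 of 5 genes passed edgeR's test (0.0282% of all genes did), none had an unadjusted p under 0.05 (2.89% of all genes did), and DESeq2 called 0. The differences were -0.18 for Gas1 (95% interval -0.53 to 0.17), -0.05 for Cdon (-0.43 to 0.32), 0.06 for Boc (-0.42 to 0.54), 0.09 for Gli2 (-0.21 to 0.39) and 0.14 for Gli3 (-0.18 to 0.47). For all 5 genes the libraries overlapped in Head, where 21.6% of all genes did not. In Tail, 0 of 5 passed (0.0329% of all genes did), none had an unadjusted p under 0.05 (3.69% of all genes did), and DESeq2 called 0. All 5 differences were below 0, from -0.34 for Boc (interval -0.82 to 0.14) and for Cdon (-0.71 to 0.04) to -0.09 for Gas1 (-0.44 to 0.26). Cdon, Gli2 and Gli3 were lower in both DKO libraries without overlap, as were 13.7% of all genes. Among 54 other Hedgehog pathway genes, Gpr161 itself was the 1 that fell in each region and none rose. That call was lost without Head DKO 1 or 2 in Head (edgeR adjusted p = 0.314 and 0.0911) and without Tail DKO 1 in Tail (0.0833).

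Tail was compared with Head within a genotype, where both parts had the same sex. Libraries of the same replicate number deviated together there (r = 0.133 to 0.437), but r reached 0.302 across genotypes too. Pairing by number is thus an assumption. Values with a block for each genotype and number (the block) are given beside those without it. The mean Gas1 level was higher in Tail in every genotype. In WT its difference was log2 0.55 ± 0.16 (95% interval 0.20 to 0.90, edgeR adjusted p = 0.0947), and 0 of 5 genes passed while 3.77% of all genes did. With the block, Gas1 (0.54, edgeR adjusted p = 0.000516) and Cdon (-0.34, adjusted p = 0.0217) passed in WT, as did 9.43% of all genes. In Fuz KO Gas1 rose by 0.78 ± 0.16 (edgeR adjusted p = 0.0111), the 1 of 5 genes that passed among 6.3% of all genes, and with the block Boc also passed (-0.52, adjusted p = 0.0158, 14.5% of all genes). Without Head Fuz KO 1 or without Tail Fuz KO 2 the Gas1 call was lost (0.59 and 0.60, edgeR adjusted p = 0.0723 and 0.0792).

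In DKO, Gas1 was higher in Tail by 0.87 ± 0.16 (95% interval 0.51 to 1.22, edgeR adjusted p = 0.00555) and Boc lower by 0.92 ± 0.22 on the log2 scale. The Boc difference of -0.92 had an interval of -1.41 to -0.44 and an edgeR adjusted p of 0.0243. These were 2 of 5 genes, where 7.04% of all genes passed, and DESeq2 called 3, Gli3 being the third, among 2228 of the 21284 genes. With the block all 5 passed (17.1% of all genes), with Cdon at -0.49, Gli2 at -0.37 and Gli3 at -0.51 (edgeR adjusted p = 0.00139, 0.0112 and 0.00858). Leaving out Head DKO 1 ended the calls of Gas1 (still 0.87, adjusted p = 0.0577) and Boc (-0.65, adjusted p = 0.269), and leaving out Tail DKO 2 ended that of Boc (-0.60, adjusted p = 0.273). In Gpr161 KO, described without a test, Tail differed from Head by 1.24 ± 0.16 for Gas1, -0.72 ± 0.17 for Cdon, 0.48 ± 0.23 for Boc, 0.26 ± 0.14 for Gli2 and 0.32 ± 0.15 for Gli3. Boc, Gli2 and Gli3 were thus higher in Tail in Gpr161 KO and lower in Tail in DKO. Neural progenitor markers, 6 genes, summed to 752 to 1162 CPM in Head and 214 to 541 CPM in Tail, and 8 mesenchyme markers to 457 to 666 CPM in Head and 918 to 1559 CPM in Tail. The mesenchyme markers did not all differ alike. Prrx2 was lower in Tail in WT (49.4 and 40.1 against 56.6 and 60.3 CPM), Gpr161 KO and DKO, and overlapped in Fuz KO. Prrx1 was lower in Tail DKO (119 and 154 against 163 and 229 CPM) and higher in Tail Gpr161 KO. It overlapped in WT and Fuz KO. The other mesenchyme markers were higher in Tail within each genotype. The part of tissue makeup in the region differences was not tested.

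**Figure D4:**
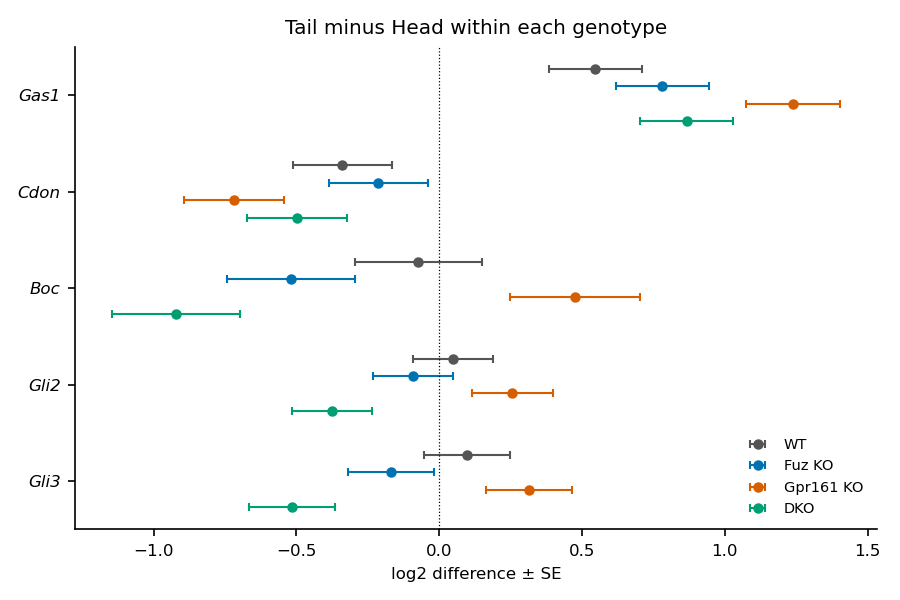
Log2 difference of Tail from Head ± SE (horizontal axis) of the 5 genes within WT, Fuz KO, Gpr161 KO and DKO, each from 2 libraries against 2, without the pairing. Gas1 lies right of 0 in all 4 genotypes (0.55 to 1.24) and Cdon left of it (-0.72 to -0.21). Boc runs from -0.92 in DKO to 0.48 in Gpr161 KO.

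The direct test of whether a genotype's effect differed between Tail and Head called 0 of 5 genes for Fuz KO and for DKO, and 0% of all genes. For Fuz KO none of the 5 had an unadjusted p under 0.05 (2.12% of all genes did), and DESeq2 called 0. For DKO 2 had an unadjusted p under 0.05 (3.25% of all genes did), and DESeq2 called 0. These were Boc at -0.85 ± 0.32 (95% interval -1.53 to -0.17) and Gli3 at -0.61 ± 0.21 (-1.07 to -0.15), both with an edgeR adjusted p of 1.00. In Head the DKO and WT libraries overlapped for Gli3 and not for Boc, and in Tail they overlapped for Boc and not for Gli3. With the block, the adjusted p was 0.133 for Boc and 0.248 for Gli3 by edgeR.

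Other genes of the pathway were read from a list of 54, sorted into ligands and their release (8 genes), receptors and surface proteins (8), transducers (20) and targets (18). In Head Fuz KO against WT the 54 had a median log2 of -0.17 against 0.01 over all genes. Where 0.047% of all genes passed, 0 of the 54 rose and 4 fell. They were the ligand gene Shh (4.72 against 29.3 CPM, log2 -2.63), the transducer Gli1 (log2 -1.59) and the target genes Foxl1 and Foxf2 (-3.32 and -2.31), forkhead factors of mesenchyme, with edgeR adjusted p of 0.0123, 0.00862, 0.0123 and 0.0473. With sex as a term none of the 4 passed (edgeR adjusted p = 0.322 to 0.967), at log2 -2.34 for Shh, -1.42 for Gli1, -2.45 for Foxl1 and -1.54 for Foxf2. Sex varied within a group only in Gpr161 KO, so that term was set by library 1 against library 2 there. Those libraries also differed in other ways, such as their hypoxia sums (11689 and 8275 CPM in Head). The term therefore cannot separate sex from genotype. Fitting each region alone also ended all 4 calls, at Shh -2.63, Gli1 -1.60, Foxl1 -3.33 and Foxf2 -2.31 (edgeR adjusted p = 0.147, 0.0532, 0.0632 and 0.331). Without the 4 libraries numbered 1 of Fuz KO and DKO, Shh, Foxl1 and Foxf2 were at -2.16, -3.24 and -2.10 and did not pass (edgeR adjusted p = 0.209, 0.728 and 1.00). Calls were also lost without Head WT 1 (Shh, Foxl1, Foxf2), Head WT 2 (Gli1, Shh, Foxf2) or Head Fuz KO 1 (Foxl1, Foxf2), with edgeR adjusted p of 0.0833 to 0.944. That of Foxf2 was lost without any 1 of the 8 Tail libraries too. In Head DKO against WT Gpr161 and Foxl1 (log2 -3.34) were the 2 of 54 that fell (0.0329% of all genes passed). In Tail DKO against WT Gpr161 was the 1 of 54 (0.0423% of all genes passed), while 0 rose in either. The Foxl1 call in Head DKO was lost without Head WT 1, Head DKO 1 or Head DKO 2 (edgeR adjusted p = 0.0832, 0.192 and 0.374), and the Gpr161 call without Head DKO 1 (0.113). Both calls were lost with sex as a term (Gpr161 -3.74, edgeR adjusted p = 0.0522, and Foxl1 -2.47, adjusted p = 0.157), and Foxl1 without the 4 libraries numbered 1 (-3.59, adjusted p = 0.329). In Tail Fuz KO against WT 0 of 54 passed (0.0094% of all genes did). The median of the 18 targets was -0.55 in Head Fuz KO, -0.53 in Head DKO, -0.52 in Tail Fuz KO and -0.21 in Tail DKO, while the medians of the 5 co-receptor and Gli genes were 0.10, 0.20, -0.16 and -0.37. In Gpr161 KO, described only, the median of the 54 was 0.33 in Head and 0.14 in Tail, and that of the 5 genes -0.96 and -1.08.

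Between regions, 3 of the 54 rose and 1 fell in WT, where 3.77% of all genes passed. In Fuz KO 7 rose and 0 fell (6.3% of all genes passed), and in DKO 8 rose and 1 fell (7.04% of all genes passed). Gpc3, a glypican that binds Hedgehog ligand, was higher in Tail at log2 0.89 ± 0.12 in WT, 0.96 ± 0.12 in Fuz KO and 0.80 ± 0.12 in DKO, as Gas1 was. Hand2, a mesenchymal target, was also higher in Tail at 1.63 in WT, 2.01 in Fuz KO and 2.21 in DKO, but passed in none of the 3 with the block (edgeR adjusted p = 0.194, 0.0912 and 0.0662). Gpc4, another glypican, was lower in Tail WT at -0.82 ± 0.17 (edgeR adjusted p = 0.0183), a call lost without Head WT 1, Head WT 2 or Tail WT 2 (0.182, 0.0522 and 0.156).

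The genes most like each of the 5 were ranked by Pearson r of log2 CPM over the 16 libraries, each centred on its region's mean, among 9634 protein coding genes. The libraries share regions and genotypes, and the values include the Gpr161 KO libraries by which the 5 genes were chosen, so r over the 12 other libraries is given beside each. Gas1 was most like Tfap2b, an AP-2 transcription factor gene (0.966, and 0.946 over the 12), followed by Rspo1, a secreted Wnt enhancer (0.929 and 0.803). Tfap2b measured 74.4 and 65.1 CPM in Head WT and 17.8 and 22.6 CPM in Head Gpr161 KO, and in Tail 45.1 and 27.9 CPM in WT and 13.7 and 18.3 CPM in Gpr161 KO. Unlike Gas1, its means were higher in Head than in Tail. Cdon was most like the paired-box genes Pax7 (0.921 and 0.501) and Pax3 (0.888 and 0.519) and the homeobox gene Msx3 (0.873 and 0.528). Pax7 was at 0.09 and 0.05 CPM in Tail Gpr161 KO and at 8.02 and 11.4 CPM in Tail WT.

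Among the genes most like Boc were the zinc finger gene Zic5 (0.937 and 0.624) and the phosphodiesterase gene Pde1b (0.934 and 0.685). Among those most like Gli3 were Lrba (0.931 and 0.599) and Cebpg (0.894 and 0.342). Gli2 was most like Cachd1 (0.924 and 0.865), the chloride channel gene Ano1 (0.846 and 0.770) and Klhl15 (0.825 and 0.737). Among the 5 genes themselves, Gas1 and Boc had r = 0.834 over the 16 libraries and -0.242 over the 12, whereas Gli2 and Gli3 had 0.782 and 0.795. Gas1 and Cdon had 0.882 over the 16 and 0.712 over the 12.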

How the data were processed

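The authors deposited a table of unnormalized gene counts for each library. Per the submitters' processing notes, the tools included STAR 2.7.1a, StringTie 2.0.4, featureCounts 1.6.0 and HTSeq, and the build was GRCm39. No source used here says which program counted or whether it used strand, so antisense reads cannot be told apart. Names, biotypes and exon lengths came from GENCODE M21, where 54809 identifiers had a name and 29 had none.

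Counts were fitted with edgeR 4.0.16 in R 4.3.3 (TMM, filterByExpr, robust quasi-likelihood) in 1 model over 16 libraries with a coefficient per group, 21284 genes and 8 residual degrees of freedom. Adjusted p-values are Benjamini-Hochberg over all genes, and a call is an adjusted p under 0.05. The script was tested on simulated data. The genes, lists, tests and the rule for named genes were chosen with earlier results of these data known. That rule names the 5 genes, Gli1 and Ptch1, Fuz and Gpr161, up to 4 called pathway genes per tested comparison, and the 3 genes most like each of the 5, with a mean of at least 10 CPM, of which some are not reported here.

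Head and Tail libraries of 1 genotype and number deviated together (r of deviations from the group means 0.133 to 0.437 in the 4 genotypes), so the numbers were taken to pair them. The labels do not state a shared embryo. Across genotypes within a region r was -0.0787 to 0.302, and the numbers were not taken to pair. The 2 ranges overlap, so these r values do not settle which libraries are paired. Alternatives were RLE scaling, no filter, 5 CPM in 2 libraries, DESeq2 1.42.0, each region alone, a replicate block, sex as a term, and leaving out libraries. Within a region the replicate block was the number as 1 term over all genotypes. For comparisons that involve both regions it was a term per genotype and number. The r over 12 libraries was added after seeing the data.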

Additional observations from a re-analysis of the deposited data

How the results depend on the processing

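Numbers of genes called follow for 11 tested comparisons in the order Head Fuz KO, Head DKO (each against WT), Head DKO against Fuz KO, the same 3 in Tail, Tail against Head in WT, Fuz KO and DKO, and the Fuz KO and DKO effects in Tail minus Head. Over all genes they were 10, 7, 6, 2, 9, 7, 802, 1341, 1499, 0 and 0. Without a filter on low counts they were 780, 432, 85, 519, 481, 151, 1688, 2174, 2305, 70 and 144, and of the 5 genes 1 passed in Head DKO against WT, 1 in the WT and 4 in the DKO region comparison. DESeq2 called 49, 57, 12, 24, 144 and 25 in the first 6, 1413 and 2071 between regions of WT and Fuz KO, and 11 for the DKO effect. With the replicate block the counts were 14 in Head DKO, 4 in Tail Fuz KO, 19 in Tail DKO (each against WT), 2007, 3094 and 3638 between regions (2, 2 and 5 of the 5 genes), and 1 and 19 for the effects. The block changed no other call among the 5 genes. Each region fitted alone gave 3 (Head Fuz KO) and 5 (Tail DKO). Sex as a term gave 1 (Head Fuz KO) and 0 (Tail Fuz KO), and turned Gli3 in Head Fuz KO to -0.018 and Gli2 in Tail Fuz KO to 0.11. That term was set by the Gpr161 KO libraries alone and cannot separate sex from genotype. Without the 4 libraries numbered 1 of Fuz KO and DKO the counts were 12 (Head DKO), 6 (Tail Fuz KO), 235 (Tail DKO), 1694 and 784 (regions of WT and Fuz KO) and 2 (DKO effect). Then 1 of the 5 genes passed in the WT region comparison, Boc, Gli2 and Gli3 in Head DKO against Fuz KO turned to -0.20, -0.068 and -0.13, and Gli2 in Tail Fuz KO to 0.022. For RLE scaling and 5 CPM in 2 libraries no count moved by over 1.5 times, and Gli3 passed between DKO regions with the latter. The causes were not tested.

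Leaving out each replicate in turn gave, over all genes, 3 to 2256, 4 to 24, 3 to 421, 1 to 4, 5 to 14, 4 to 10, 308 to 1004, 719 to 2201, 571 to 1866, 0 to 19 and 0 to 0 calls. The calls among the 5 genes ran from 0 to 1 in Head Fuz KO against WT, the WT region and the Fuz KO region comparison, and from 0 to 3 in the DKO region comparison. None of the 5 was called in the other 7. Signs that turned belonged to differences with no call: Gli3 in Head Fuz KO (-0.045 to 0.20), all 5 in Head DKO against Fuz KO (Gas1 -0.38 to 0.069, Cdon -0.20 to 0.086, Boc -0.20 to 0.29, Gli2 -0.079 to 0.25, Gli3 -0.020 to 0.30), 4 in Tail Fuz KO (Gas1 -0.39 to 0.011, Cdon -0.29 to 0.022, Boc -0.27 to 0.070, Gli2 -0.17 to 0.16), Gas1 in Tail DKO against Fuz KO (-0.27 to 0.092), Gli2 in Tail Gpr161 KO (-0.26 to 0.061), and between WT regions Boc (-0.27 to 0.064), Gli2 (-0.14 to 0.18) and Gli3 (-0.054 to 0.20). The same held for Gli2 in the Fuz KO effect (-0.26 to 0.069) and Cdon in the DKO effect (-0.28 to 0.029).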
